A study of Mus musculus with 6 samples.

Results

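Respiratory complexes III, IV and V are the enzymes of the inner mitochondrial membrane that oxidise ubiquinol, reduce oxygen and make ATP. Their genes were taken from the deposited table by symbol: every name starting with Uqcr, with Cox and a digit, or with Atp5, together with Cyc1 and Cycs. This gave 53 of the 24956 rows of the table: 10 for complex III and cytochrome c, 18 for structural subunits of complex IV, 9 for complex IV assembly factors with a Cox name and 16 for complex V. Complex III (cytochrome bc1) passes electrons from ubiquinol to the carrier protein cytochrome c, complex IV (cytochrome c oxidase) passes them on to oxygen, and both pump protons. Complex V (ATP synthase) lets the protons flow back through its membrane rotor and uses that flow to make ATP. In the intestine, absorptive enterocytes are known for their many mitochondria. The subunits encoded by mitochondrial DNA are not analysed here.

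RNA was sequenced from intestinal organoids of mouse, 3-dimensional cultures of intestinal epithelium, labelled as primary cells of the Apc Min genotype. Apc is a tumour suppressor that holds back Wnt signalling, and Min is a truncating allele of it that gives mice intestinal adenomas. The libraries were 3 from Apc Min organoids in low glutamine medium and 3 from Apc Min organoids in control medium, so both groups carried the Min allele. The title of the series sets the work in a study of alpha-ketoglutarate, a product of glutamine, and of differentiation in colorectal cancer. The glutamine concentrations, the time in the medium, the animals and the part of the intestine are not stated in the labels. The design text speaks of biological replicates, without saying if animals or only cultures were separate within a group. The p-values thus reflect the spread among these libraries, which may be technical.

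The values were RPKM, reads divided by transcript length and by the depth of the library. Depth was estimated at 28.2 to 34.0 M (mega) reads in low glutamine libraries and 24.4 to 35.3 M reads in control libraries. At 1 RPKM, a transcript 1 kilobase long was thus covered by 24.4 to 35.3 reads. The groups differed in sex-linked transcripts: Xist was at 0.0237 to 0.0350 RPKM in low glutamine libraries and at 83.1 to 90.5 RPKM in control libraries, and Y-linked Eif2s3y was at 25.2 to 31.4 RPKM in low glutamine libraries and listed at 0 in all control libraries. The low glutamine and control libraries thus did not come from the same animal. Donor, sex and medium coincided in all 6 libraries and cannot be told apart. The ribosomal RNA precursor Rn45s was at 9778, 12252 and 6788 RPKM in low glutamine replicates 1 to 3, against 1898, 2074 and 6680 RPKM in control replicates 1 to 3. Of the epithelial markers, 8 of 8 enterocyte genes were lower in low glutamine, with summed levels of 534 to 599 RPKM against 3432 to 3711 RPKM in control. All 5 crypt base stem cell markers were higher, with sums of 1327 to 1499 RPKM in low glutamine against 662 to 726 RPKM in control. The 4 goblet cell markers were lower (sums of 433 to 511 RPKM in low glutamine, against 911 to 1132 RPKM in control). The 4 Paneth cell markers were higher (2183 to 2667 RPKM against 1118 to 1126 RPKM in control), as were the 3 enteroendocrine markers (1047 to 1217 RPKM against 191 to 197 RPKM in control). Over all tested genes, 30.3% were called lower and 36.1% higher by the test used below. Of the 5 immune markers, Cd68 was at 1.79 to 2.16 RPKM in low glutamine and 0.565 to 0.788 RPKM in control, and Itgam at 0.212 to 0.246 RPKM in low glutamine and 0.673 to 0.910 RPKM in control. The immune sums were at most 2.37 RPKM in low glutamine and 1.503 RPKM in control, and those of the 2 endothelial markers at most 0.435 RPKM in low glutamine and 0.197 RPKM in control. The 8 fibroblast and muscle markers together reached 0.0954 to 0.181 RPKM in low glutamine and 0.0718 to 0.107 RPKM in control, with Col3a1 at 0 in all 6 libraries. In bulk RNA, fewer cells of a type and less RNA per cell cannot be told apart, and the part of these shifts in the results below was not tested.

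Nearly all nuclear genes of the 3 complexes were lower in low glutamine organoids. Of the 53 genes, 48 had a mean of at least 1 RPKM and were tested with limma on log2(RPKM + 1). At an adjusted p under 0.05, 44 were lower and 1, Cox6b2, was higher, and 3 (Cox18, Atp5g2 and Atp5s) did not pass. Over all 11082 tested genes, 30.3% were called lower and 36.1% higher. The 3 low glutamine values lay below all 3 control values in 44 of the 48, and above them in 1, against 31.3% and 38.9% of all tested genes. The falls were of moderate size. The mean RPKM of the 44 genes called lower was 13.4% to 84.4% lower in low glutamine, with a median of 27.1%, and 8 of the 44 were lower by 1.5-fold or more. The median log2 fold change over the 48, low glutamine over control, was -0.45, and that of all tested genes 0.03. Of all tested genes, 13.19% had a log2 fold change at or below -0.45. All fold changes below are differences of log2(RPKM + 1), which understate the change of genes at a few RPKM.

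Most of these genes were at high levels, where falls were frequent in general. Of the 48, 34 had a mean of at least 100 RPKM, and 33 of the 34 were called lower. Among the 450 other genes at that level, 50% were lower and 18.7% higher, with a median log2 fold change of -0.18 against -0.46 for the 34. Summed over all 53 genes, the level was 6612, 6435 and 7221 RPKM in low glutamine replicates 1 to 3, against 9169, 9367 and 9225 RPKM in control replicates 1 to 3. The sums did not overlap, and the low glutamine mean was 0.730 of the control mean. Sums over all 11082 tested genes did not overlap either, with a ratio of 0.914. For the 450 other genes at 100 RPKM or more the ratio was 0.889. The 53 genes held 1.96% to 2.08% of all RPKM in low glutamine libraries and 2.48% to 2.55% in control libraries. Low glutamine replicate 3 held the highest of the 3 low glutamine values for 36 of the 48 tested genes, and replicate 2 the lowest for 33. The RPKM sum of the whole table had the same order, highest in replicate 3 (347248) and lowest in replicate 2 (327956). This order is thus not particular to these genes. With quantile normalization, which forces the same distribution on every library, 35 genes were called lower and 2 higher, and the median of the 48 was -0.22. Of all tested genes, 32.8% were lower and 36.7% higher in that setting.

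**Figure D1:**
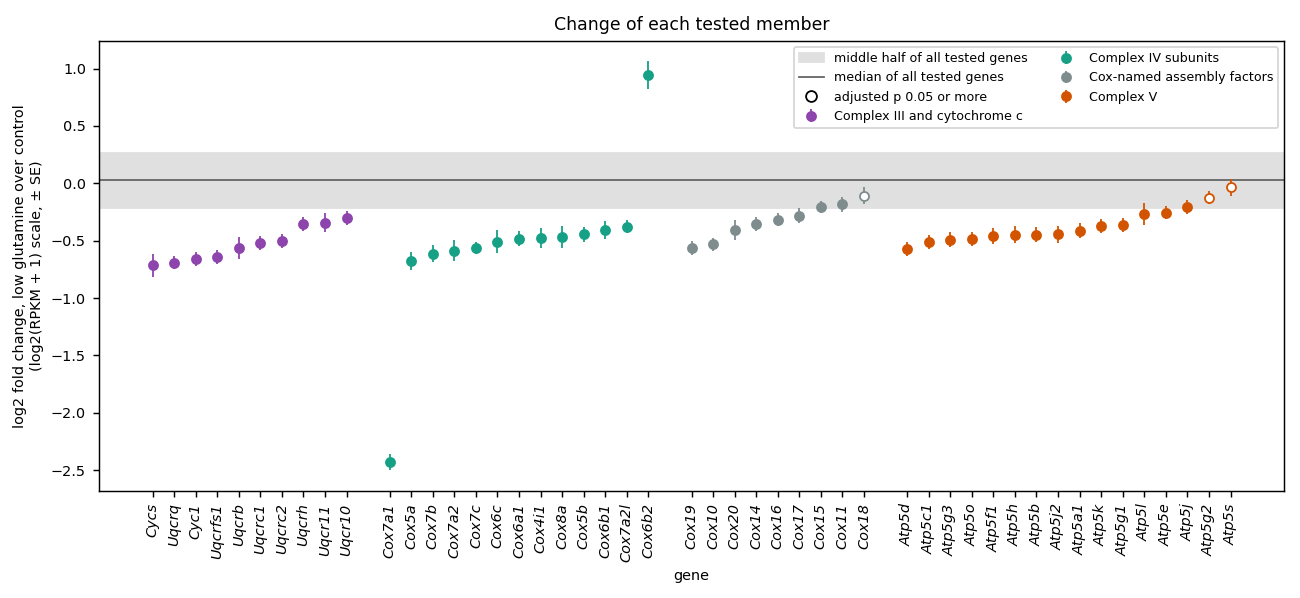
Log2 fold change of the 48 tested genes (vertical axis, low glutamine over control on the log2(RPKM + 1) scale, bars are SE), grouped by complex and sorted within each group, with the median and middle range of all tested genes as a line and a grey band. Cox7a1 at -2.43 and Cox6b2 at 0.94 stand outside the -0.8 to 0 range of the others, open circles mark the 3 genes that did not pass, and Atp5e, Atp5g2, Atp5s and Cox18 change sign in at least 1 alternative.

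In complex III, all 10 genes were lower in low glutamine and no gene's groups overlapped; the median log2 fold change was -0.54. Summed RPKM was 1223 ± 72.6 in low glutamine and 1713 ± 21.8 in control (SD, n = 3 each). The falls were largest for the electron-carrying proteins and for 1 small subunit. Cycs encodes somatic cytochrome c, the soluble carrier between complexes III and IV (chromosome 6, 50562563 to 50566569, GRCm38.p6). It stood at 36.8, 35.1 and 47.4 RPKM in low glutamine replicates 1 to 3, against 62.8, 61.7 and 72.3 RPKM in control replicates 1 to 3. The log2 fold change was -0.72 ± 0.10 (SE, limma adjusted p = 4.46e-05). Uqcrq, a small subunit once named for ubiquinone binding (chromosome 11, 53427922 to 53430831), was at 53.7, 53.7 and 57.5 RPKM in low glutamine, against 89.0, 92.7 and 86.4 RPKM in control. Its change was -0.69 ± 0.06 (adjusted p = 3.20e-07), and the groups were far apart relative to their spread. Cyc1 is cytochrome c1, the heme protein that hands electrons to cytochrome c (chromosome 15, 76343513 to 76346260). Its libraries held 120, 114 and 116 RPKM in low glutamine, against 187, 195 and 173 RPKM in control, a change of -0.66 ± 0.06 (adjusted p = 1.33e-06).

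The other complex III genes had smaller falls. Uqcrfs1, the Rieske iron-sulfur protein, averaged 104 ± 2.29 RPKM in low glutamine and 164 ± 8.14 RPKM in control (-0.64 ± 0.06, limma adjusted p = 9.88e-07). Uqcrb, another small subunit, averaged 116 ± 17.1 RPKM in low glutamine and 172 ± 15.3 RPKM in control, a wider spread that still left the groups apart (-0.57 ± 0.10, adjusted p = 0.000216). The core proteins Uqcrc1 and Uqcrc2, which scaffold the matrix side of the complex, changed by -0.52 and -0.50. The smallest falls were in Uqcr10 (-0.31), Uqcr11 (-0.34) and Uqcrh (-0.36), small subunits without a redox centre. Uqcrh, the acidic hinge protein that helps cytochrome c1 meet cytochrome c, had the highest level of the group (chromosome 4, 116066965 to 116075070). It was at 271, 273 and 301 RPKM in low glutamine, against 361, 364 and 357 RPKM in control (-0.36 ± 0.06, adjusted p = 0.000339). With quantile normalization Uqcrh, Uqcr10 and Uqcr11 were no longer called, at -0.04, -0.01 and -0.06, and 7 of the 10 were called lower.

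**Figure D2:**
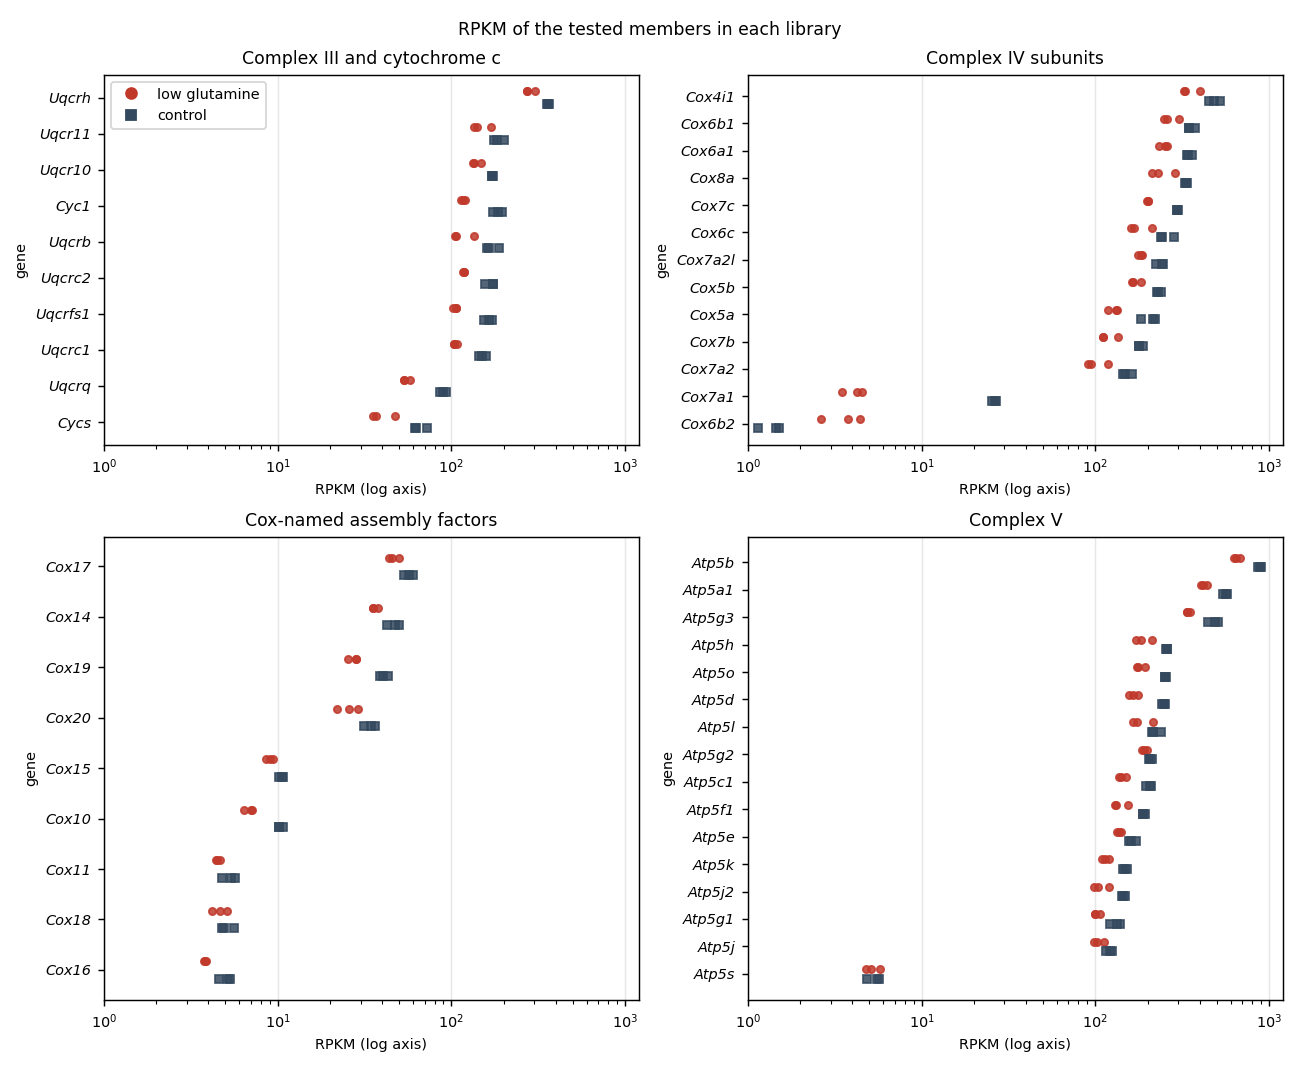
RPKM of each tested gene in each library (horizontal log axis), with 3 low glutamine libraries as circles above 3 control libraries as squares, in 4 panels by complex. Low glutamine points lie left of all control points for 44 genes and right of them for Cox6b2; they overlap for Atp5l, Atp5s and Cox18.

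Of the structural subunits of complex IV, 13 of 18 were tested; 12 were lower and 1 was higher in low glutamine, with a median log2 fold change of -0.48. Summed RPKM was 2197 ± 183 in low glutamine and 3106 ± 63.9 in control (SD, n = 3 each). The ubiquitous subunits moved within a narrow range of -0.38 to -0.68. Cox5a, which binds on the matrix side of the catalytic core (chromosome 9, 57517328 to 57532427), was at 132, 133 and 119 RPKM in low glutamine, against 214, 221 and 183 RPKM in control. Its log2 fold change was -0.68 ± 0.08 (SE, limma adjusted p = 8.70e-06). Cox7b, a small membrane subunit encoded on the X chromosome (106015700 to 106022450), was at 111, 110 and 134 RPKM in low glutamine, against 178, 177 and 188 RPKM in control (-0.61 ± 0.08, adjusted p = 1.86e-05). It was the only tested gene of the 48 on a sex chromosome. With chromosomes X and Y left out of the fit, 43 of the 47 others were called lower. Each gene has its own fit, so this changes only the shared variance trend and the p-value adjustment. It cannot test the part of the sex-linked difference between groups. Cox4i1, the regulatory subunit that binds ATP and the most abundant transcript of the complex (chromosome 8, 120668225 to 120674209), was at 329, 323 and 398 RPKM in low glutamine, against 454, 482 and 519 RPKM in control. It changed by -0.47 ± 0.09 (adjusted p = 0.000436). Cox7c averaged 201 ± 1.24 RPKM in low glutamine and 297 ± 0.917 RPKM in control, the smallest spread for its level in the complex (-0.56 ± 0.06, adjusted p = 2.05e-06). Cox7a2 (-0.59), Cox6c (-0.51), Cox6a1 (-0.48), Cox8a (-0.47), Cox5b (-0.44), Cox6b1 (-0.40) and Cox7a2l (-0.38) were lower too. Cox7a2l, which joins complexes III and IV into supercomplexes in place of Cox7a2, thus had the smallest fall. With quantile normalization Cox4i1, Cox8a and Cox6b1 were not called, at adjusted p values of 0.0598, 0.114 and 0.287.

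The 2 largest changes among the tested genes were in tissue isoforms of complex IV subunits, in opposite directions. Cox7a1, the isoform of heart and skeletal muscle (chromosome 7, 30184171 to 30186030), was at 4.25, 3.48 and 4.54 RPKM in low glutamine replicates 1 to 3, against 27.0, 25.4 and 26.6 RPKM in control replicates 1 to 3. The groups were separated by far more than their spread, with a ratio of means of 0.156 and a log2 fold change of -2.43 ± 0.07 (SE, limma adjusted p = 2.97e-11). Over the alternatives it ranged over -2.66 to -1.79 and was always called. The fibroblast and muscle markers, with Ckm among them, were near 0 in both groups (above), and the source of the Cox7a1 transcript was not tested. Cox6b2, the testis isoform (chromosome 7, 4751792 to 4753094), was at 3.76, 4.43 and 2.64 RPKM in low glutamine, against 1.51, 1.14 and 1.46 RPKM in control. Low glutamine was 2.63-fold higher on mean RPKM (0.94 ± 0.12, adjusted p = 2.18e-05), at levels that rest on few reads. Over the alternatives this ranged over 0.43 to 1.31 and was always called. Cox6a2, the muscle isoform (chromosome 7, 128205435 to 128206366), was too low to test, at 0.134, 0.0461 and 0.0537 RPKM in low glutamine and 0.680, 0.943 and 0.435 RPKM in control. Cox4i2, Cox7b2, Cox8b and Cox8c, known from lung, testis or muscle, were listed at 0 in all 6 libraries.

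Seen as shares of their families, these isoforms stayed minor. Cox7a1 made up 1.42 ± 0.120% of the summed Cox7a1, Cox7a2 and Cox7a2l RPKM in low glutamine and 6.35 ± 0.214% in control (SD, n = 3 each). Cox7a2l took 63.5 ± 3.05% in low glutamine and 57.1 ± 2.54% in control, and Cox7a2 35.1 ± 3.00% in low glutamine and 36.5 ± 2.47% in control. The Cox7a1 share thus differed by far more than the spread between libraries, while the Cox7a2 shares overlapped. Cox6b2 made up 1.35 ± 0.450% of Cox6b1 and Cox6b2 in low glutamine and 0.384 ± 0.0539% in control. The Cox6a2 share of its family was 0.0312% in low glutamine and 0.196% in control.

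The proximal promoters are shown of the isoforms that moved apart and of 3 subunits that fell with the rest: Atp5b, the most abundant, which holds no match, and Cox6a1 and Atp5k, picked from the 5 genes with both an NRF1 and an ETS match. Each is the RefSeq window of 250 bases before to 50 after the gene's start on GRCm38.p6, read 5′ to 3′ on the strand of the gene. Capitals mark matches to motifs of the factors known for respiratory genes, searched on both strands: NRF1 (CGCATGCG, a palindrome), ETS (CCGGAAG, for GABP, seen as CTTCCGG where it lies on the other strand), YY1 (AAGATGGC, which can overlap the end of an ETS match) and ERR (TCAAGGTCA, for Esrra). Cox7a1 is at chr7:30183921-30184220 (plus strand), Cox6b2 at chr7:4753045-4753344 (minus strand), Cox6a1 at chr5:115348909-115349208 (minus strand), Atp5k at chr5:108434350-108434649 (minus strand) and Atp5b at chr10:128083057-128083356 (plus strand).
Cox7a1: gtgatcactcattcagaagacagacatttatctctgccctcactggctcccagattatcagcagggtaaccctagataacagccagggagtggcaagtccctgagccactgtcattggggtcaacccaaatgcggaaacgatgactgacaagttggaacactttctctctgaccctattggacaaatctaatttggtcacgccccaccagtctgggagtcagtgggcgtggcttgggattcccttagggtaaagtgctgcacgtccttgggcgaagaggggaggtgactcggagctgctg
Cox6b2: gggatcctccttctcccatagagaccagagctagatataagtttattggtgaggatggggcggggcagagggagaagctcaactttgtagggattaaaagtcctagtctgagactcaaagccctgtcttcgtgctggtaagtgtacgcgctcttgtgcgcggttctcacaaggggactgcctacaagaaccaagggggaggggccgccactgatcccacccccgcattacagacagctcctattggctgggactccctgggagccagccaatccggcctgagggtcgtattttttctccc
Cox6a1: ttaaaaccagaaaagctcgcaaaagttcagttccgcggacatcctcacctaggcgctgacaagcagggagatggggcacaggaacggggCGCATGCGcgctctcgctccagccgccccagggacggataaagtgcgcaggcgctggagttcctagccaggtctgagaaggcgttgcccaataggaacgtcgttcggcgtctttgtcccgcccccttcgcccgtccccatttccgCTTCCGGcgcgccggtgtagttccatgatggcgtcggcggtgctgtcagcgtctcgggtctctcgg
Atp5k: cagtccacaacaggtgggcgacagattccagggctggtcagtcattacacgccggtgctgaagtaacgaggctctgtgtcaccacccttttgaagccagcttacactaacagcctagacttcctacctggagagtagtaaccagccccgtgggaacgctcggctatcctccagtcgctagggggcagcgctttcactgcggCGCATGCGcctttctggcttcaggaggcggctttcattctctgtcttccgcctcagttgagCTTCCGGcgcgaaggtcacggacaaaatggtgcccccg
Atp5b: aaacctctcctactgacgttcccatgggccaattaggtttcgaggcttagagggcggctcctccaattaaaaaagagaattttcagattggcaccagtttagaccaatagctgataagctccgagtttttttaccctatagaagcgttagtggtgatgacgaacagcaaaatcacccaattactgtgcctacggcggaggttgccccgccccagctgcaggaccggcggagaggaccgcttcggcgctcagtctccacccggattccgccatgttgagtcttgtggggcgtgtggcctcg
The Cox7a1, Cox6b2 and Atp5b windows hold none of these 4 letter strings, which says nothing more than that. Counted from the gene's start, Cox6a1 has an NRF1 match from base -161 and an ETS match from base -16. Atp5k has an NRF1 match from base -49 and an ETS match from base 13.

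A promoter window was listed for 41 of the 53 genes. Of these 41, 20 held none of the 4 strings. Of the 20, 16 were called lower, and Cox7b2 and Cox8b, at 0 in all libraries, were not tested. Among all 48 tested genes 44 were called lower. An NRF1 match was in 8 of the 41 (Atp5g2, Atp5j, Atp5k, Atp5l, Cox6a1, Cycs, Uqcr11 and Uqcrc1), or 19.5%, against 2.07% of the 27025 genes listed with a window. ETS matches were in 15 (36.6% against 9.93%), YY1 matches in 5 (12.2% against 3.19%) and an ERR match in 1, Atp5g3 (2.44% against 0.466%). Among the 8941 tested genes with a window the shares were 4.66% for NRF1, 21.8% for ETS, 5.69% for YY1 and 0.313% for ERR. The general promoter string CCAAT, not marked in the sequences, was also searched and was in 51.2% of the 41, against 41.1% of all genes and 43.7% of tested genes with a window. The genes with an NRF1 match spanned much of the range of log2 fold changes, from Cycs at -0.72 and Uqcrc1 at -0.52 to Atp5j at -0.21 and Atp5g2 at -0.13, which did not pass. These are matches of letters and not measured binding.

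Of the 9 Cox-named assembly factors, which build complex IV without being part of it, 8 were lower in low glutamine, with a median log2 fold change of -0.32. They were at lower levels than the subunits, with sums of 164 ± 7.68 RPKM in low glutamine and 214 ± 3.90 RPKM in control (SD, n = 3 each). Cox19, which takes part in copper delivery (chromosome 5, 139337822 to 139345166), was at 25.4, 28.1 and 28.1 RPKM in low glutamine, against 40.3, 43.0 and 38.7 RPKM in control. The change was -0.56 ± 0.06 (SE, limma adjusted p = 4.84e-06). Cox10, the farnesyltransferase that makes heme O (chromosome 11, 63962627 to 64079472), was at 6.99, 6.43 and 7.12 RPKM in low glutamine, against 10.1, 10.7 and 10.2 RPKM in control (-0.53 ± 0.05, adjusted p = 2.98e-06). Cox15, the next enzyme of that pathway, which makes heme A, changed less (-0.20 ± 0.05, adjusted p = 0.00446). Cox20, a chaperone of the second catalytic subunit, was at 21.9, 25.8 and 29.1 RPKM in low glutamine, against 34.4, 31.3 and 36.6 RPKM in control (-0.41 ± 0.09, adjusted p = 0.00167). Of its annotated exon bases, 91.05% overlap Hnrnpu on the other strand, and no source says whether the counting used strand, so its values are uncertain. Cox17, the copper chaperone of the intermembrane space and the most abundant of the 9 (chromosome 16, 38346983 to 38352763), was at 43.7, 45.7 and 50.0 RPKM in low glutamine, against 53.3, 57.1 and 59.9 RPKM in control (-0.28 ± 0.07, adjusted p = 0.00214).

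The remaining assembly factors changed by -0.35 to -0.11. Cox14 and Cox16, which act on newly made catalytic subunits, changed by -0.35 and -0.32, and 56.78% of the exon bases of Cox16 are shared with the same-strand gene Gm20498. Cox11, which inserts copper into the first catalytic subunit, changed by -0.18 ± 0.06 (SE, limma adjusted p = 0.0229), with 48.35% of its exon bases overlapping Tom1l1 on the other strand. Its call was lost without low glutamine replicate 2 or 3 or control replicate 1 or 2, at adjusted p values of 0.0608, 0.0634, 0.106 and 0.0609. It was also lost without a filter on low values (limma adjusted p = 0.0646) and with a common RPKM sum (-0.08, adjusted p = 0.257). Cox18, which inserts the tail of the second catalytic subunit into the membrane, was at 5.09, 4.19 and 4.64 RPKM in low glutamine, against 4.75, 5.59 and 4.88 RPKM in control. Its groups overlapped and it did not pass (-0.11, adjusted p = 0.208), but was called lower with quantile normalization (-0.19, adjusted p = 0.0451), where all 9 were lower. With each library rescaled to a common RPKM sum, 6 of the 9 were lower, and Cox11 and Cox15 were no longer called. With Rn45s left out of that sum, 5 of the 9 were lower, and Cox11, Cox15 and Cox17 were no longer called.

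In complex V, 14 of 16 genes were lower in low glutamine, with a median log2 fold change of -0.43, and summed RPKM was 3172 ± 154 in low glutamine and 4221 ± 84.3 in control (SD, n = 3 each). The 2 largest falls were in subunits of the central stalk, which turns inside the catalytic head. Atp5d, the delta subunit of the central stalk (chromosome 10, 80138698 to 80145828), was at 164, 157 and 176 RPKM in low glutamine, against 247, 252 and 241 RPKM in control. It changed by -0.57 ± 0.06 (SE, limma adjusted p = 4.82e-06). Atp5c1, the gamma subunit, its shaft (chromosome 2, 10056030 to 10080510), was at 141, 137 and 149 RPKM in low glutamine, against 207, 209 and 195 RPKM in control (-0.51 ± 0.06, adjusted p = 9.90e-06). Atp5e, the epsilon subunit of the same stalk, changed less (-0.25 ± 0.06, adjusted p = 0.00216), and with quantile normalization its direction turned (0.04, adjusted p = 0.595). Atp5b, the catalytic beta subunit, had the highest level of all 53 genes (chromosome 10, 128083307 to 128090388). It was at 642, 628 and 676 RPKM in low glutamine, against 887, 901 and 865 RPKM in control, with no overlap (-0.45 ± 0.07, adjusted p = 7.72e-05). Atp5a1, the alpha subunit that alternates with beta, changed by -0.41. With quantile normalization 10 of the 16 were called lower.

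The stalk and membrane subunits of complex V followed over a wider range. In the peripheral stalk, which holds the head still, Atp5o, the OSCP subunit, changed by -0.49, Atp5f1, subunit b, by -0.46 and Atp5h, subunit d, by -0.45. Atp5j, coupling factor 6 of the same stalk, changed by -0.21 ± 0.06 (SE, limma adjusted p = 0.0111). It was not called with a common RPKM sum (-0.08, adjusted p = 0.133), with that sum without Rn45s (-0.05, adjusted p = 0.298) or with quantile normalization (-0.0037, adjusted p = 0.942). Of its exon bases, 12.68% overlap Gabpa on the other strand. Among the small membrane subunits that shape the dimer, Atp5j2 changed by -0.44 and Atp5k by -0.37. With quantile normalization Atp5k was not called (-0.11, limma adjusted p = 0.0709). Atp5l, subunit g, was at 174, 165 and 216 RPKM in low glutamine, against 212, 215 and 240 RPKM in control. It was called lower (-0.27 ± 0.09, adjusted p = 0.0229), although low glutamine replicate 3 lay above control replicates 1 and 2. Without low glutamine replicate 1 or 2 or control replicate 3 it did not pass, at adjusted p values of 0.0623, 0.0986 and 0.0951. Nor did it pass without a filter on low values (adjusted p = 0.101), with a common sum (-0.14, adjusted p = 0.169), with that sum without Rn45s (-0.11, adjusted p = 0.255) or with quantile normalization (-0.02, adjusted p = 0.837). Atp5s, which in other mammals was named coupling factor B and is not a core subunit, was at 5.09, 4.82 and 5.75 RPKM in low glutamine, against 5.71, 4.84 and 5.58 RPKM in control, with full overlap (-0.04, adjusted p = 0.681).

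The rotor ring of complex V is built from subunit c, and 3 genes encode the same mature protein with different targeting sequences. In their coding sequences the last 78 codons encode identical residues in all 3, while 73.1% of the 234 bases are identical in all 3. The last 120 coding bases before the stop codon are shown because reads from these genes must be told apart by such differences; capitals mark the 30 positions at which the 3 are not all the same. The sequences are of GENCODE M21 transcripts on GRCm38, all on the minus strand: Atp5g1 at chr11:96068852-96075670, Atp5g2 at chr15:102663014-102667749 and Atp5g3 at chr2:73908447-73911326.
Atp5g1: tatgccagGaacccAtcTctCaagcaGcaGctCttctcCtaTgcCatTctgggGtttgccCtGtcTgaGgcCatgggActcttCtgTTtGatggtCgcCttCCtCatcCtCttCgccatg
Atp5g2: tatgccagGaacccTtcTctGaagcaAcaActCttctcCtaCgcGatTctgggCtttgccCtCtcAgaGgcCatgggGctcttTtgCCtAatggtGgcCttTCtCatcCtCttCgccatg
Atp5g3: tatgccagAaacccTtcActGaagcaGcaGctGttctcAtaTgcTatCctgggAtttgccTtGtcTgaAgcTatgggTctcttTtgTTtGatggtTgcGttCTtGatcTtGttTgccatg
The longest run of identical bases in the coding sequences was 21 for Atp5g1 and Atp5g2, 11 for Atp5g1 and Atp5g3 and 8 for Atp5g2 and Atp5g3.

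The 3 subunit c genes did not all change alike. Atp5g3 (chromosome 2, 73908447 to 73912464) was at 350, 339 and 337 RPKM in low glutamine, against 490, 510 and 445 RPKM in control, a log2 fold change of -0.49 ± 0.07 (SE, limma adjusted p = 4.53e-05). Atp5g1 (chromosome 11, 96072793 to 96075694) was at 100, 99.0 and 106 RPKM in low glutamine, against 134, 139 and 121 RPKM in control (-0.36 ± 0.06, adjusted p = 0.000313). Atp5g2 (chromosome 15, 102662868 to 102671047) was at 190, 184 and 197 RPKM in low glutamine, against 207, 213 and 204 RPKM in control. Its low glutamine values lay below all control values by a small margin and it did not pass (-0.13 ± 0.06, adjusted p = 0.0720). Its sign depended on the scaling: it was called higher with quantile normalization (0.12, adjusted p = 0.0110) and called lower with median-of-ratios scaling (-0.16, adjusted p = 0.00248). Without low glutamine replicate 3 it was called lower (-0.15, adjusted p = 0.0124). As a share of the 3, which scaling of a library leaves unchanged, Atp5g2 took 30.1 ± 0.625% in low glutamine and 25.4 ± 0.975% in control (SD, n = 3 each). Atp5g3 took 53.9 ± 1.08% in low glutamine and 58.6 ± 0.770% in control, and the shares of neither gene overlapped between groups. Atp5g1 took 16.04 ± 0.472% in low glutamine and 15.98 ± 0.207% in control.

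**Figure D3:**
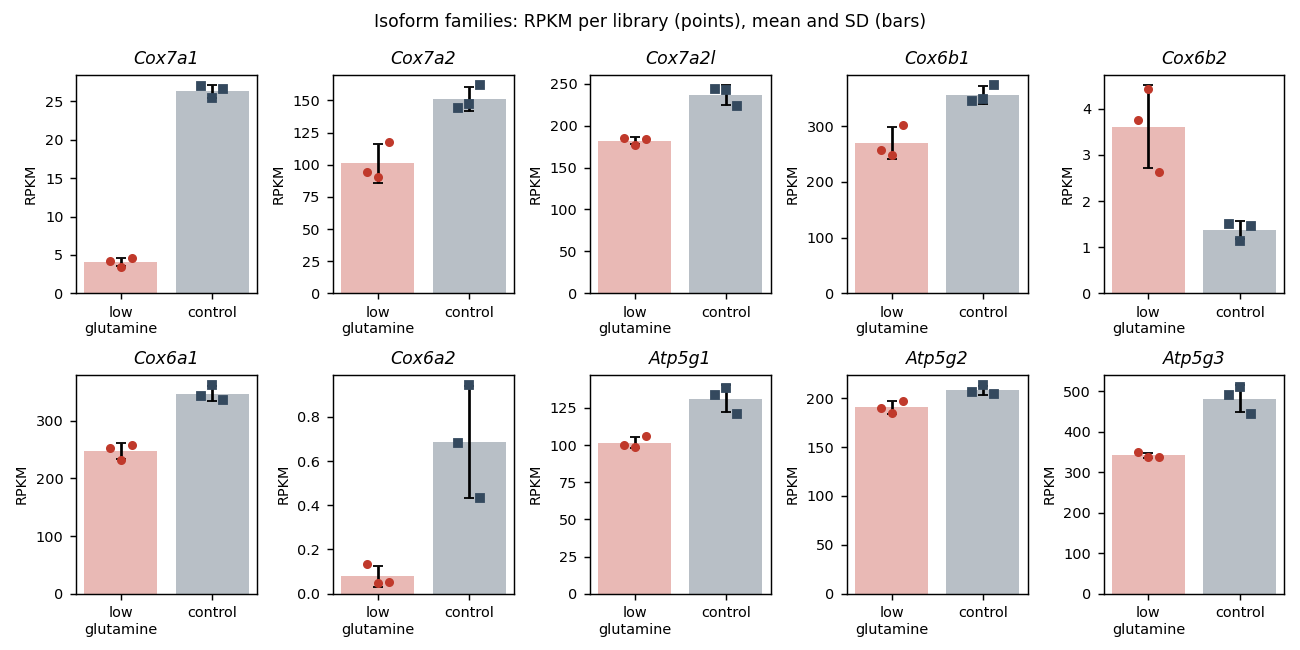
RPKM of the genes of 4 isoform families in each library (points), with bars at the mean and error bars at the SD of 3 libraries, low glutamine left of control; each vertical axis starts at 0 and has its own scale. Cox7a1 averages 4.09 RPKM in low glutamine and 26.3 RPKM in control, Cox6b2 3.61 RPKM in low glutamine and 1.37 RPKM in control, and Atp5g2 191 RPKM in low glutamine and 208 RPKM in control.

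Most genes of the complexes upstream were lower as well. Of 36 nuclear complex I subunits, 31 (86.1%) were lower in low glutamine and 0 were higher, with a median log2 fold change of -0.42. Over all tested genes 30.3% were lower and 36.1% higher, which also applies to complex II below. Complex I takes electrons from NADH. Its largest fall and its highest level were in Ndufa6, at 139, 137 and 156 RPKM in low glutamine, against 300, 305 and 302 RPKM in control (-1.07 ± 0.06 SE, limma adjusted p = 2.12e-08). All 4 subunits of complex II, succinate dehydrogenase, were lower, with a median of -0.64, from -0.49 to -0.80 for Sdhb, and Sdhd, the most abundant, was at -0.68. Summed RPKM in low glutamine relative to control was 0.714 for complex III with cytochrome c, 0.707 for complex IV and 0.752 for complex V, against 0.719 for complex I and 0.644 for complex II. Over all tested genes, summed RPKM in low glutamine was 0.914 of control. The differences between complexes were not tested.

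**Figure D4:**
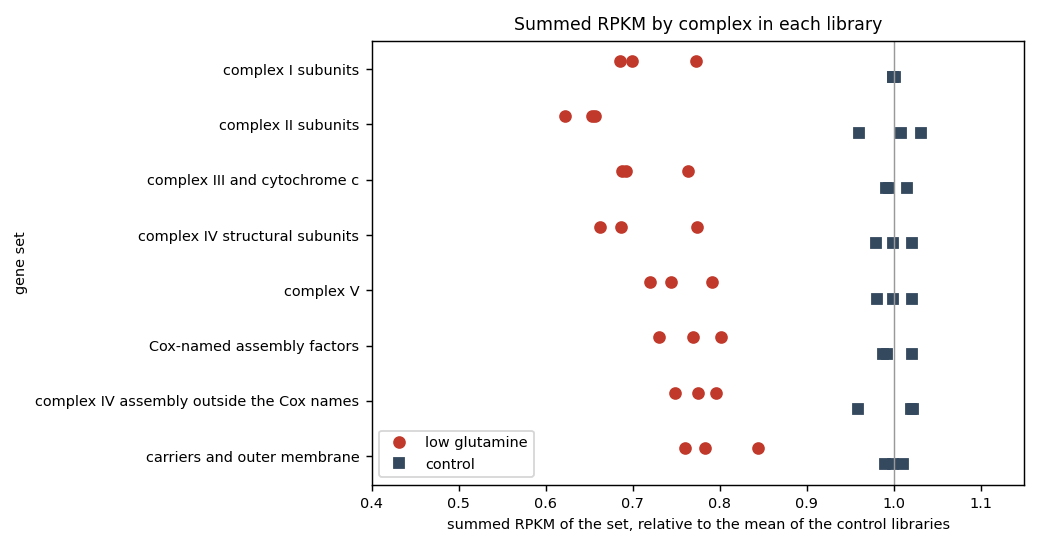
Summed RPKM of each gene set in each library, relative to the mean of the 3 control libraries (horizontal axis, cut at 0.4), with low glutamine circles above control squares. For complexes III, IV and V the low glutamine sums lie below all control sums, at 0.714, 0.707 and 0.752 of the control mean on average. Low glutamine replicate 3 is the highest of its group in each. Over all tested genes, not shown, the low glutamine sums also lie below all control sums, at 0.914 of the control mean. Replicate 3 is the highest of its group there too.

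Helper proteins of the 3 complexes outside the name rule did not all move alike. Of 6 complex III assembly factors, 1 was lower, Uqcc2 (-0.20 ± 0.05 SE, limma adjusted p = 0.00436), and 0 were higher. This was 16.7% lower, against 30.3% of all tested genes. With the replicate block, with median-of-ratios scaling or without control replicate 3, 3 of the 6 were called lower. In these settings 32.0%, 35.6% and 31.2% of all tested genes were lower. The median of the 6 was -0.09, and with libraries rescaled to a common sum it was 0.0043 with 0 lower. Of 16 tested complex IV assembly factors and associated proteins with other names, 13 were lower (81.25%, against 30.3% of all tested genes), with a median of -0.33. The largest fall was in Coa4 (-0.63 ± 0.07, adjusted p = 3.62e-06). Ndufa4, now counted as a subunit of complex IV, had the highest level and changed by -0.27 ± 0.07 (adjusted p = 0.00617). Of 6 complex V assembly factors and small associated proteins, 3 were lower (50.0%, against 30.3% of all tested genes): Usmg5, 2010107E04Rik and Atpif1. The assembly factors Atpaf1, Atpaf2 and Tmem70 did not pass, at limma adjusted p values of 0.510, 0.0527 and 0.0829. With the replicate block, with median-of-ratios scaling or without low glutamine replicate 3, 5 of the 6 were called lower. Usmg5, a small membrane subunit and the most abundant of the 6, changed by -0.37 ± 0.07 (adjusted p = 0.000492). Atpif1, the inhibitor of ATP hydrolysis by complex V, averaged 61.0 RPKM in low glutamine and 86.6 RPKM in control (-0.51 ± 0.11, adjusted p = 0.00166).

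Among 12 regulators of respiratory genes, 2 were lower (16.7%, against 30.3% of all tested genes) and 4 higher (33.3%, against 36.1%) in low glutamine. The number called higher depended on the setting. It was 5 with the replicate block (37.8% of all tested genes). It was 6 with a common RPKM sum and with that sum without Rn45s (51.2% and 54.3%). It was 3 with quantile normalization (36.7%), and 3 without low glutamine replicate 1 or 3 or control replicate 2. Esrra, the nuclear receptor ERR-alpha, which activates many genes of oxidative phosphorylation (chromosome 19, 6910977 to 6922048), was at 24.1, 23.0 and 21.4 RPKM in low glutamine, against 53.4, 57.3 and 48.3 RPKM in control. It changed by -1.18 ± 0.07 (SE, limma adjusted p = 1.58e-08). Its coactivator Ppargc1a (chromosome 5, 51454249 to 52115853) was at 1.04, 0.903 and 1.24 RPKM in low glutamine, against 3.26, 3.31 and 2.80 RPKM in control (-1.0 ± 0.08, adjusted p = 2.12e-07). Both were called lower in 16 of 16 alternatives. The 4 that were higher, Gabpb1 (0.30), Pprc1 (0.22), Nrf1 (0.18) and Tfb2m (0.16), changed by little. Nrf1 was called in 14 of 16 alternatives, with an adjusted p of up to 0.302, and Tfb2m in 13 of 16, with an adjusted p of up to 0.121, by limma. Gabpa, Yy1, Tfam, Tfb1m, Polrmt and Ppargc1b did not pass.

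Of 14 carriers and other proteins that serve these complexes or their membrane, 8 were lower and 1 was higher in low glutamine. Their median was -0.17. This was 57.1% lower and 7.1% higher, against 30.3% and 36.1% of all tested genes. The count depended on the scaling, with 4 lower and 5 higher under quantile normalization. With that setting 32.8% of all tested genes were lower and 36.7% higher. Slc25a3, the phosphate carrier that feeds complex V, was at 268, 260 and 284 RPKM in low glutamine, against 416, 428 and 407 RPKM in control (-0.62 ± 0.06 SE, limma adjusted p = 2.41e-06). The carriers that exchange ADP for ATP moved in opposite directions. Slc25a5, the X-linked isoform and the most abundant of the 14, was at 358, 355 and 363 RPKM in low glutamine, against 538, 549 and 498 RPKM in control (-0.56 ± 0.06, adjusted p = 8.63e-06). Slc25a4, the isoform of heart and muscle, was at 64.7, 59.7 and 67.8 RPKM in low glutamine, against 24.6, 23.2 and 24.1 RPKM in control (1.38 ± 0.06, adjusted p = 7.78e-10). Each group was well apart from the other in both genes.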

How the data were processed

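RNA-seq libraries of Apc Min intestinal organoids, 3 in low glutamine and 3 in control medium, were made from total RNA with TruSeq kits, per the labels. The deposited values are RPKM, made by the authors, listed by gene symbol. CASAVA 1.8, HISAT2 2.0.4, Partek and the mm10 build appear in the submitters' processing notes without their roles; annotation, strandedness and the way of counting are not given there. RPKM are not counts, so no count test was run. Depth was estimated from whole-read steps of low values in single-exon genes: 82.8% to 90.1% of these came out whole within 0.02 of a read, including the values that set the depth. It limits the precision of genes at a few RPKM.

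With limma 3.58.1 (R 4.3.3), the log2(RPKM + 1) values of 11082 genes, those whose mean reached 1 RPKM, were tested two-sided with trended empirical Bayes variances, with Benjamini-Hochberg adjustment over all of them and a threshold of 0.05. This step was tested on simulated data. Of the 53 genes, 51 matched RefSeq (GRCm38.p6) by symbol and 2, Atp5s and Atp5f1, by synonym; coordinates are 1-based RefSeq gene bounds unless given otherwise. Of the 53, 19 share annotated exon bases with another gene, 16 of them with one on the opposite strand, so that their values are uncertain. The genes and lists were chosen with earlier results of these data known. Library values are given for the most abundant gene of each group, up to 3 with the largest fall and rise among those called, genes called against their group, tissue isoforms and the subunit c family, and others are named to complete a group. From each further list the most abundant gene and the largest called changes are named. Libraries that share a number deviated together from their group means (r = 0.15, 0.25 and 0.57 for numbers 1, 2 and 3). Each was above 0.1, the limit for treating the numbers as pairs. Low glutamine replicate 1 with control replicate 2 gave 0.36, and replicate 2 with control replicate 1 gave 0.20. The limit thus did not tell equal from unlike numbers among replicates 1 and 2. The main fit was unpaired, and the pairing entered as an alternative. Alternatives were pseudocounts of 0.1 and 5, no filter, a common RPKM sum, median-of-ratios scaling, quantile normalization, no variance trend, autosomal genes alone, a replicate block and leaving out each library. A common sum without Rn45s was added after the data were seen. The promoter strings are short core forms; for NRF1 the core was taken in place of a longer form after the matches of the longer form, which fewer windows held, had been seen. Python 3.11.15, pandas 2.3.3, numpy 2.4.6 and matplotlib 3.10.9 were used.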

Additional observations from a re-analysis of the deposited data

How the results depend on the processing

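Over 767 values of single genes across the alternatives, 725 kept their direction and their side of the threshold, 29 lost the call, 4 gained it and 9 changed direction; except where stated, the cause was not tested. Genes called lower numbered 44, with 42 to 44 when 1 library was left out, 40 with a common RPKM sum, 37 with that sum without Rn45s (added after the data were seen), 35 with quantile normalization and 45 with median-of-ratios scaling. Of all tested genes, 30.3% were lower as deposited, 23.0% with the common sum and 21.5% with that sum without Rn45s. The share was 32.8% with quantile normalization and 35.6% with median-of-ratios scaling. The replicate block, with the number as a pairing, left 44 lower and 1 higher of the 48 and changed none of their calls. Quantile normalization called 2 genes higher, Cox6b2 and Atp5g2. The common sum without Rn45s left 5 of the 8 assembly factors called. Direction changed for Atp5g2 (0.0009) and Atp5s (0.0712) with a common sum, for Cox18 (0.0208), Atp5g2 (0.0288) and Atp5s (0.0946) with that sum without Rn45s, and for Atp5e (0.0378) and Atp5g2 (0.12) with quantile normalization. With 1 library left out, Atp5s ranged from -0.0972 to 0.0115 and was above 0 without low glutamine replicate 2 or control replicate 1. The common sums moved the median of all tested genes to 0.14 and 0.17, against 0.03 as deposited, and the share of calls that were higher to 69.0% and 71.6%, against 54.4%. Relative to that median, the 48 genes stood at -0.46 under both common sums, -0.48 as deposited and -0.23 with quantile normalization. The Cox7a1, Cox6b2 and Atp5g3 shares kept their direction without any 1 library, with ranges of -5.05 to -4.86, 0.768 to 1.21 and -5.17 to -4.11 percentage points. Genes at a few RPKM are limited by depth.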
